A study of Homo sapiens with 6 samples.

Results

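The RB pocket protein genes and the E2F transcription factor genes are described here as a set of 10 genes, chosen by symbol: RB1, RBL1, RBL2, E2F1, E2F2, E2F3, E2F4, E2F5, E2F7 and E2F8. All 10 were found, each in 1 of the 58735 rows of the count table, and all 10 passed the filter on low counts that left 15935 genes for testing. Poly(A)-enriched RNA was sequenced from RD cells, an established embryonal rhabdomyosarcoma cell line, that had been transduced with lentivirus carrying a scrambled shRNA (control, n = 3) or an shRNA against TAK1 (knockdown, n = 3). Both groups carried the same kind of viral vector, in which a polymerase III promoter drives the shRNA. Per the study, the sequenced cells carried the first of its TAK1 shRNA constructs and no other, so loss of TAK1 and other actions of the shRNA cannot be told apart. The study asked how TAK1 acts on proliferation, oncogenic signaling and differentiation of these cells. The sources used here do not say when RNA was taken after transduction, or whether the 3 samples of a group came from separate transductions, and p-values measure the spread between these samples, which may in part be technical.

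Total counts per sample ran from 28839898 to 34469323. MAP3K7, which encodes TAK1, lay between 76.5 and 77.9 CPM (counts scaled to a common library size) in the control samples and between 29.9 and 33.6 CPM in the knockdown samples. Of 6 markers of the skeletal muscle lineage, 5 could be tested. They summed to between 1026 and 1041 CPM in control and between 1158 and 1293 CPM in knockdown samples. By the rule for calls given further on, 3 of them were called higher, against 11.8% of all genes tested. MYF5 was at 0 in every sample. The epithelial, blood and endothelial markers summed to at most 0.603 CPM in any sample, with 2 of 4 epithelial, 2 of 4 blood and 1 of 3 endothelial markers at 0 throughout.

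RB1, RBL1 (p107) and RBL2 (p130) share a pocket with which they bind E2F factors and hold back transcription of E2F target genes. Cyclin-dependent kinases phosphorylate them in G1 and release E2F, and the genes for DNA replication are then transcribed. E2F1, E2F2 and E2F3 are known as activators, E2F4 and E2F5 act mainly with RBL1 and RBL2 in repressor complexes of resting cells, and E2F7 and E2F8 repress without binding a pocket protein. In muscle precursors the family is known for its part in leaving the cell cycle, with RB1 needed for stable exit and RBL2 abundant in cells that no longer divide. Several E2F genes and RBL1 are themselves E2F targets.

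Sequences around the transcription start show which members carry a given spelling of the site that E2F factors bind. The promoters were those of RefSeq on GRCh38.p14, from 250 bases before to 50 bases after the start, and 8 of the 10 members were in that table (not E2F5 and E2F8). They were searched on both strands for 4 spellings of the E2F site, TTTCGCGC, TTTGGCGC, TTTCCCGC and TTTGCCGC. A spelling was present in 4 of the 8 members, RBL1, E2F1, E2F2 and E2F3, against 3.33% of all 27305 promoters in the table. That table includes genes not tested here, and of the 10827 tested genes in it, 588 held a spelling. The stretches around these matches are shown 5′ to 3′ on the strand of the gene, with the matched bases in capitals. Those of TYMS and PCNA, which are E2F target genes described further on, stand beside them.
RBL1: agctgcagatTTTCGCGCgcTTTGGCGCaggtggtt
E2F1: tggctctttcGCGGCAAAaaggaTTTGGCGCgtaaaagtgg
E2F2: cggcacgacgTTTGGCGCtaaaaaaaaa
E2F3: tgaaaagccgGCGGGAAAtccgagtttc
TYMS: cgggacggccGCGGGAAAaggcgcgcgg
PCNA: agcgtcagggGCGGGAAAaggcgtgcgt

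The RBL1 stretch lies at chr20:37095998-37096033 on the minus strand, and its pair of matches spans positions -26 to -9 relative to the start. In E2F1, at chr20:33686388-33686428 on the minus strand, a match in each direction lies between positions -33 and -13. The E2F2 stretch, chr1:23531258-23531285 on the minus strand, and the E2F3 stretch, chr6:20401816-20401843 on the plus strand, hold 1 match each, at -42 to -35 and at -53 to -46. The TYMS and PCNA stretches lie at chr18:657604-657631 (plus strand) and chr20:5126664-5126691 (minus strand). No spelling was found in the windows of RB1, RBL2, E2F4 and E2F7. The CHR element TTTGAA, known from late cell cycle promoters, was found in the windows of RBL2 and E2F3 and in 15.4% of all promoters. Of the 10827 tested genes with a promoter in the table, 1038 held it. A match is a spelling in the reference genome, and binding was not measured. A site with another spelling, or outside the window, would not be found, so a window without a match may belong to an E2F-bound gene.

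Of the 10 genes, 2 fell and 1 rose in TAK1 knockdown RD cells. E2F2 and E2F8 fell, to 0.730 and 0.699 of their control level, and E2F5 rose to 1.28 times its control level. A gene is called here where the quasi-likelihood test of edgeR gave it a Benjamini-Hochberg adjusted p under 0.05 and its log2 fold change was 0.25 or more in either direction, the thresholds the study used. By this rule 11.3% of all genes tested were called lower and 11.8% were called higher, so the counts of 2 and 1 among 10 genes lie near the background. By the adjusted p alone, 4 members were lower (RBL1, E2F1, E2F2, E2F8) and 2 were higher (RBL2, E2F5), against 17.2% and 16.1% of all genes tested. The 3 control and the 3 knockdown samples did not overlap for 7 members, 5 lower and 2 higher, against 22.2% and 21.6% of all genes. The median log2 fold change of the members was -0.11, and that of all genes tested was 0.018. In bulk RNA, fewer cells in a phase of the cell cycle and less RNA per cell cannot be told apart.

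**Figure D1:**
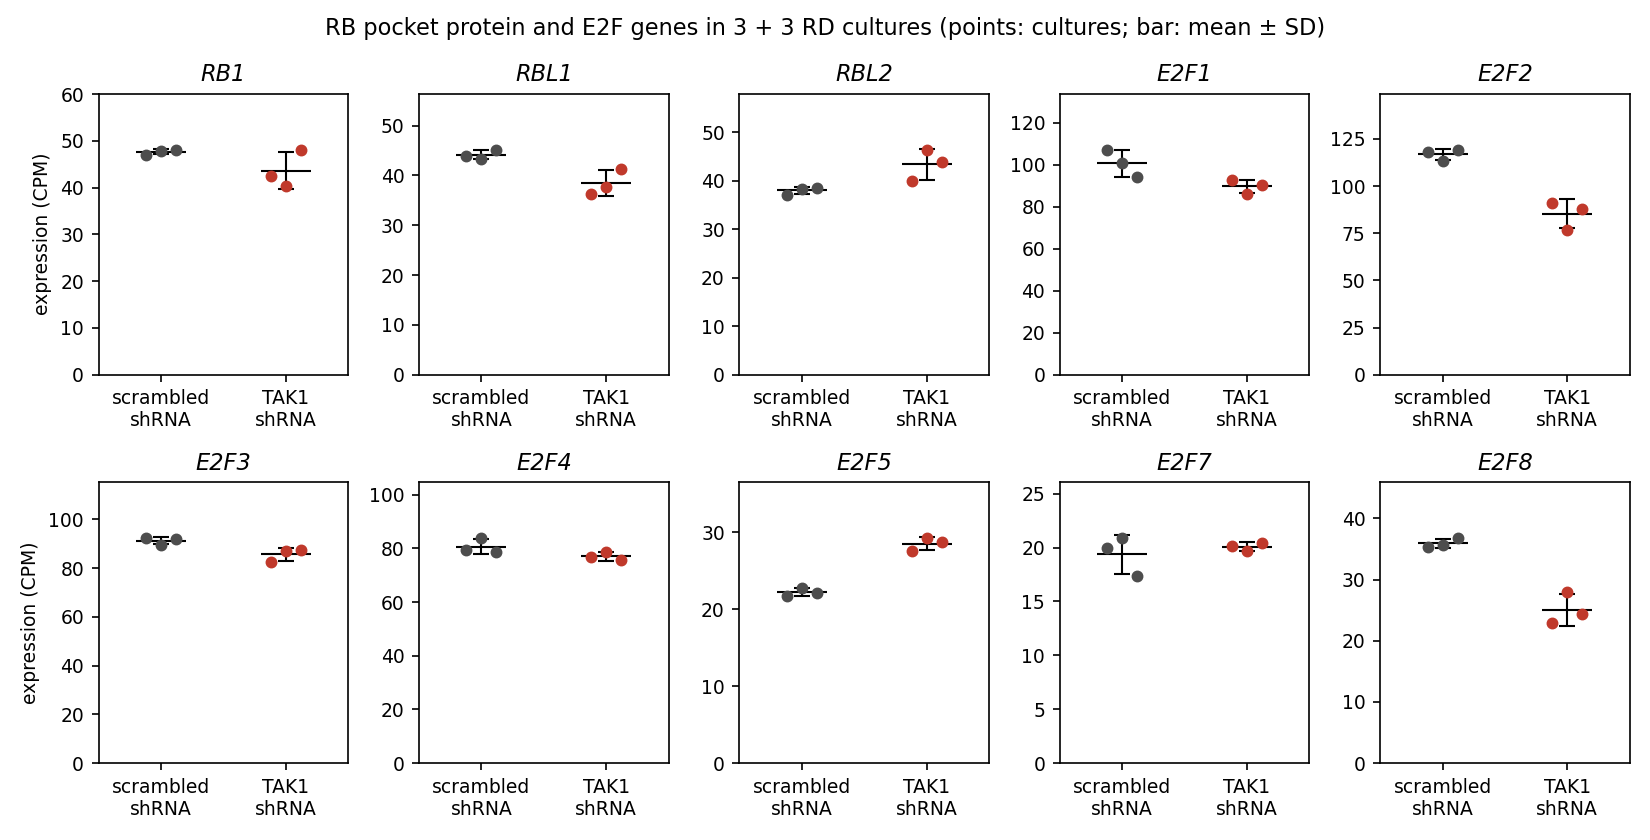
Expression in CPM (vertical axes, starting at 0) of each of the 10 genes in the 3 control samples (grey) and the 3 TAK1 knockdown samples (red), with the mean and SD as bars. E2F2 and E2F8 lie lower and E2F5 higher in every knockdown sample, while the groups overlap for RB1, E2F4 and E2F7.

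Among the pocket proteins, RBL1 and RBL2 lay on opposite sides of their control levels. RBL2, the pocket protein of resting cells (chromosome 16, 53433977 to 53491648 in GRCh38, GENCODE 44), stood at 37.1, 38.4 and 38.6 CPM in control samples 1, 2 and 3 and at 39.9, 46.4 and 43.9 CPM in the knockdown samples. All 3 knockdown samples lay above the controls, sample 1 by little. The means were 38.0 ± 0.798 and 43.4 ± 3.29 CPM (SD, n = 3), which as a log2 fold change is 0.19 ± 0.067 (SE; adjusted p = 0.0289 by edgeR's quasi-likelihood test), under the fold threshold. The adjusted p exceeded 0.05 when any control sample, or knockdown sample 2 or 3, was left out, at values from 0.0662 to 0.158. Of the 8110 exonic bases of RBL2, up to 1330 are shared with AKTIP and another annotated transcript on the opposite strand, and the sources do not say whether strand was used in counting. AKTIP itself stood at 10.96 ± 1.28 and 11.4 ± 0.659 CPM (SD, n = 3), with a log2 fold change of 0.054 (adjusted p = 0.748, edgeR).

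RBL1, the pocket protein that is itself made in growing cells (chromosome 20, 36996349 to 37095997), stood at 43.9, 43.4 and 45.2 CPM in control samples and at 36.2, 37.7 and 41.3 CPM in knockdown samples. The groups did not overlap, and knockdown sample 3 lay nearest the controls. The log2 fold change was -0.20 ± 0.066 (SE; adjusted p = 0.0202, edgeR), again under the fold threshold. Without knockdown sample 3 it was -0.27 (adjusted p = 0.00523, edgeR), past both thresholds, and without control sample 2 or 3 or knockdown sample 1 or 2 the adjusted p lay between 0.0511 and 0.0866.

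RB1, the retinoblastoma tumor suppressor gene (chromosome 13, 48303744 to 48599436), stood at 47.1, 47.9 and 48.1 CPM in control samples and at 42.5, 40.4 and 48.01 CPM in knockdown samples. Knockdown sample 3 lay within the control range, and the other two lay below it. The log2 fold change was -0.13, with a 95% interval from -0.27 to 0.0088 (adjusted p = 0.148, edgeR). The value was -0.21 without knockdown sample 3 (adjusted p = 0.0186, edgeR), and -0.076 without knockdown sample 2 (adjusted p = 0.467). These are RNA levels. Phosphorylation, by which the pocket proteins are known to be controlled, leaves no trace in them.

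Of the 3 activator E2F genes, E2F2 fell, and E2F1 and E2F3 were not called. E2F2 (chromosome 1, 23506438 to 23531233) stood at 118, 114 and 119 CPM in the 3 control samples and fell to 91.3, 76.9 and 88.1 CPM in the knockdown samples, each of which lay below each control. The means were 117 ± 3.01 and 85.4 ± 7.56 CPM (SD, n = 3), which as a log2 fold change is -0.45 ± 0.058 (SE; adjusted p = 9.08e-07, edgeR). The call held without any 1 sample, with values between -0.50 and -0.38. No other annotated gene has exons on those of E2F2, and its promoter is the one with a single TTTGGCGC shown above.

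E2F1, known both for driving S phase entry and for inducing apoptosis genes (chromosome 20, 33675477 to 33686385), stood at 107, 101 and 93.9 CPM in control samples and at 92.5, 86.0 and 90.2 CPM in knockdown samples. The groups met closely, with control sample 3 only just above knockdown sample 1. The log2 fold change was -0.17 ± 0.055 (SE; adjusted p = 0.0212, edgeR), under the fold threshold. Without control sample 1 it was -0.12 (adjusted p = 0.158), and the adjusted p also passed 0.05 without control sample 2 (0.0762), without knockdown sample 2 (0.0765) or with scaling by library size alone (0.0949). E2F3 (chromosome 6, 20401879 to 20493714) stood between 89.5 and 92.2 CPM in control and between 82.6 and 87.4 CPM in knockdown samples. Its log2 fold change was -0.090, with a 95% interval from -0.20 to 0.015 (adjusted p = 0.186, edgeR), so the interval lay inside the fold threshold on both sides.

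Of the E2F factors known from repressor complexes, E2F5 rose and E2F4 was not called. E2F5 (chromosome 8, 85177154 to 85217158) stood at 21.7, 22.8 and 22.1 CPM in control samples and rose to 27.6, 29.2 and 28.8 CPM in knockdown samples. The groups were far apart relative to their spread, with means of 22.2 ± 0.556 and 28.6 ± 0.830 CPM (SD, n = 3). The log2 fold change was 0.36 ± 0.072 (SE; adjusted p = 0.000335, edgeR), and from 0.34 to 0.38 with each sample left out in turn. Exons on the opposite strand, of RBIS and a long noncoding RNA, cover up to 1130 of its 5999 exonic bases. RBIS, listed under its older symbol C8orf59, stood at only 5.71 ± 0.883 CPM in control and 5.31 ± 0.627 CPM in knockdown samples (SD, n = 3), with a log2 fold change of -0.11 (adjusted p = 0.631, edgeR).

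E2F4 (chromosome 16, 67192155 to 67198918), the most abundant E2F of many resting cells, stood at 79.5, 83.8 and 78.7 CPM in control samples and at 76.7, 78.8 and 75.7 CPM in knockdown samples. The groups overlapped. The log2 fold change was -0.066 with a 95% interval from -0.17 to 0.043 (adjusted p = 0.371, edgeR), which lies inside the fold threshold.

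The atypical repressors E2F7 and E2F8 are known to work as a pair that shuts down E2F target genes late in S phase. Here E2F8 fell and E2F7 was not called. E2F8 (chromosome 11, 19224063 to 19241620) stood at 35.4, 35.6 and 36.8 CPM in control samples and fell to 22.8, 27.9 and 24.4 CPM in knockdown samples. No knockdown sample reached the controls. With means of 35.9 ± 0.729 and 25.1 ± 2.58 CPM (SD, n = 3), the log2 fold change was -0.52 ± 0.076 (SE; adjusted p = 6.9e-06, edgeR), the lowest of the 10 genes. With each sample left out in turn it was between -0.60 and -0.46. E2F7 (chromosome 12, 77021248 to 77065569) stood at 19.9, 20.9 and 17.4 CPM in control samples and at 20.2, 19.6 and 20.4 CPM in knockdown samples. Its groups overlapped, the log2 fold change was 0.052 with a 95% interval from -0.12 to 0.23 (adjusted p = 0.686, edgeR), and without control sample 3 it was -0.022.

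**Figure D2:**
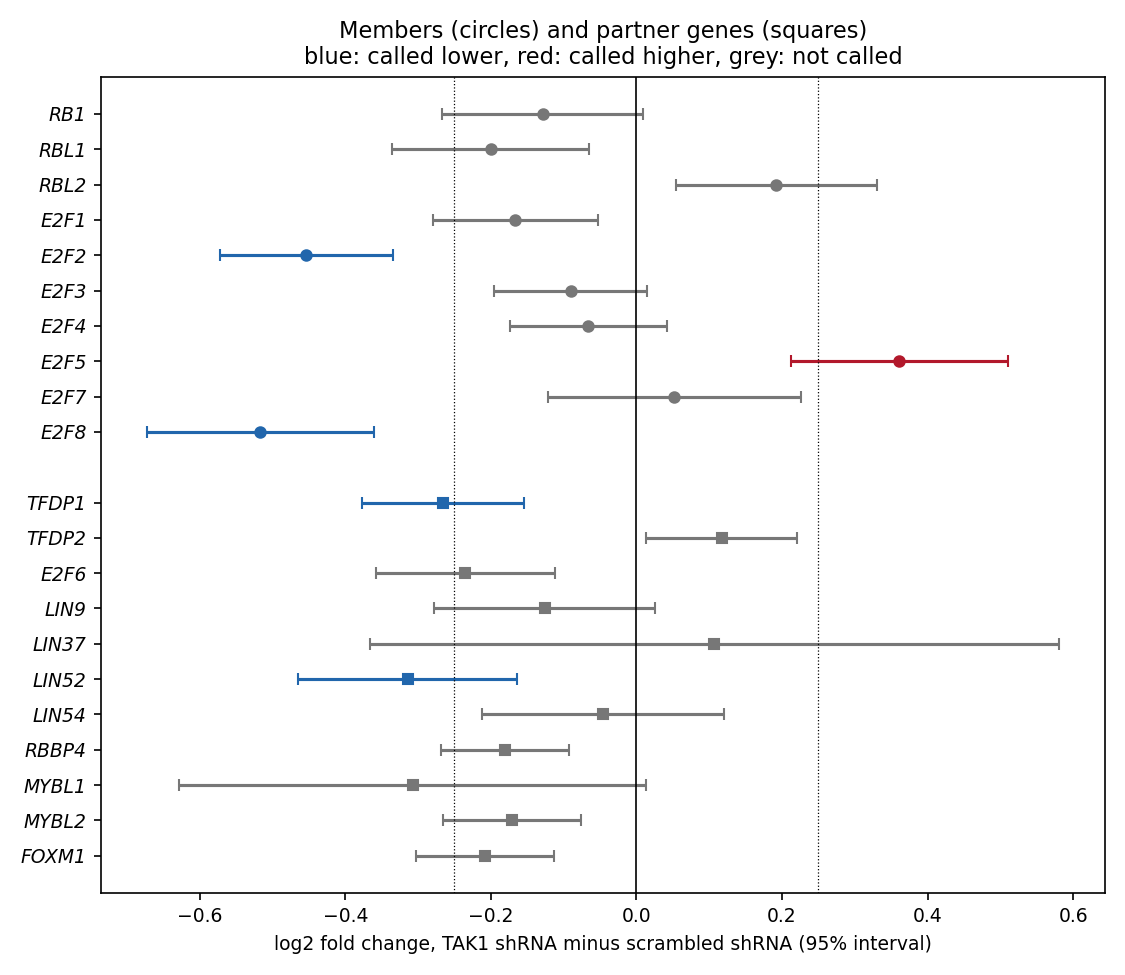
Log2 fold change of knockdown against control (horizontal axis) with its 95% interval for the 10 genes (circles) and for 11 genes of E2F dimerisation and MuvB partners (squares), with dotted lines at the fold threshold of 0.25. E2F2 and E2F8 lie below the lower line with their whole interval, whereas the interval of E2F5 reaches down to 0.21.

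Ratios of counts between related members, taken within each sample and not corrected for gene length, show how their balance differed between samples. These ratios do not depend on how samples were scaled and are given as values without a test. The RBL2 to RBL1 ratio was 0.845, 0.885 and 0.854 in control samples and 1.10, 1.23 and 1.06 in knockdown samples. RBL1 thus had more counts in every control sample and RBL2 in every knockdown sample. RBL2 has the longer annotated exons when those of all its transcripts are merged (8110 bases, against 5956 for RBL1). Per kilobase of this merged length RBL1 stayed above RBL2 in every knockdown sample. These levels were 6.075, 6.336 and 6.932 CPM per kilobase for RBL1 and 4.921, 5.725 and 5.409 for RBL2. The length of the transcripts present in the cells was not measured, so which of RBL1 and RBL2 was the more abundant is not settled. The E2F5 to E2F4 ratio was 0.276 ± 0.00484 in control and 0.371 ± 0.0101 in knockdown samples (SD, n = 3), and that of E2F7 to E2F8 was 0.540 ± 0.0599 and 0.808 ± 0.0926 (SD, n = 3). The E2F2 to E2F1 ratio was 1.17 ± 0.0908 in control and 0.952 ± 0.0508 in knockdown samples (SD, n = 3), and here too the groups did not overlap. That of E2F3 to E2F1 overlapped between the groups. Of the CPM summed over the 7 E2F genes, E2F1, E2F2 and E2F3 together held 66.1% ± 0.967 in control and 63.3% ± 1.49 in knockdown samples (SD, n = 3). E2F4 and E2F5 held 22.04% ± 0.743 and 25.7% ± 0.838, and E2F7 and E2F8 held 11.8% ± 0.227 and 10.98% ± 0.680 (SD, n = 3).

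**Figure D3:**
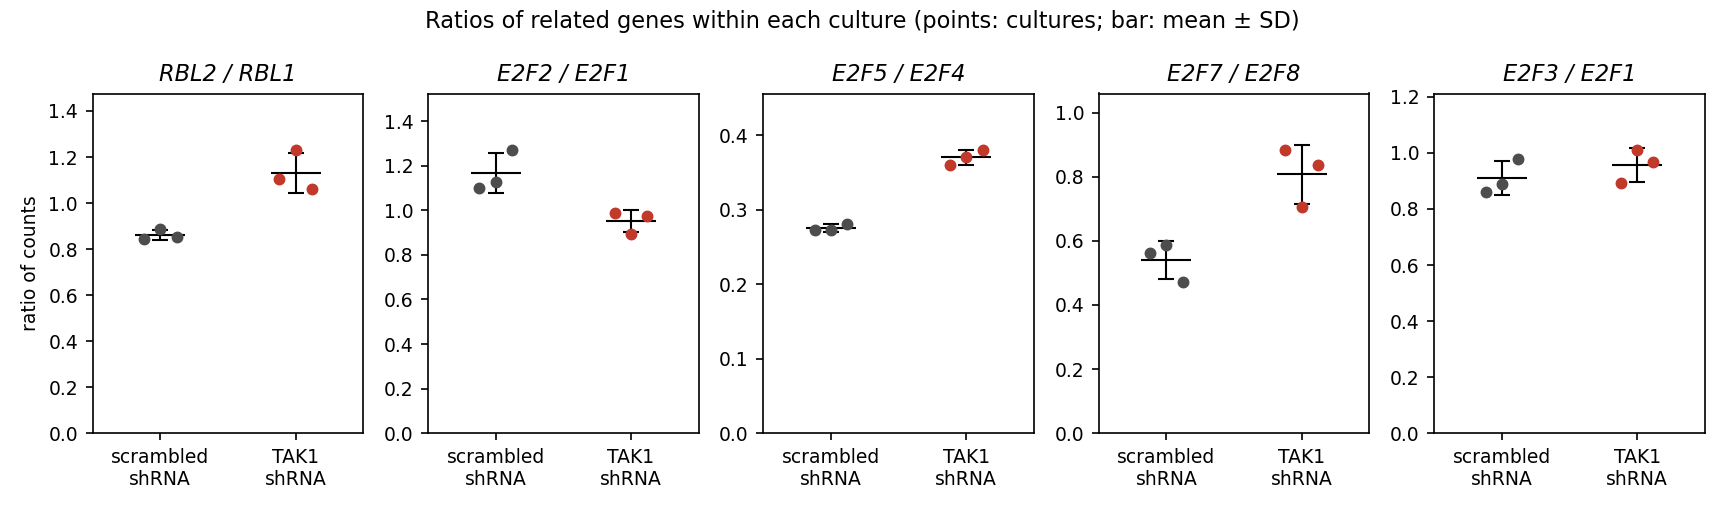
Ratio of the counts of 2 related genes within each of the 3 control (grey) and 3 knockdown samples (red), with the mean and SD as bars and vertical axes starting at 0. The groups are separate for the first 4 ratios and overlap for E2F3 to E2F1.

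Levels of different genes were compared as CPM per kilobase of annotated exon (GENCODE 44), merged over all transcripts of a gene. This length can differ from that of the transcripts present in the cells, and the order of genes depends on it. In control cells E2F1 was highest at 37.4 CPM per kilobase, followed by E2F4 at 22.4, E2F2 at 21.4 and E2F3 at 17.6. E2F4 and E2F2 were close neighbours in this order, with E2F4 samples down to 21.87 and E2F2 samples up to 21.85 CPM per kilobase. E2F8 followed at 8.69, RB1 and RBL1 both at 7.41, RBL2 at 4.69, E2F5 at 3.70 and E2F7 at 3.08 CPM per kilobase. The samples of RB1 and RBL1 overlapped. In knockdown cells E2F2 stood at 15.6 and E2F3 at 16.5 CPM per kilobase, with overlapping samples. E2F8 at 6.06, RB1 at 6.78 and RBL1 at 6.45 CPM per kilobase were neighbours with overlapping samples, and in knockdown sample 2 E2F8 was the highest of them.

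E2F factors other than E2F7 and E2F8 bind DNA with a DP partner. The MuvB proteins join E2F and pocket proteins in the DREAM complex of resting cells, or MYBL2 and FOXM1 in cycling cells. Of 12 such genes, 11 could be tested (TFDP3 was at 0 in every sample), and 2 were called lower and 0 higher by edgeR, against the 11.3% and 11.8% of all genes. DESeq2 also called 2 lower and 0 higher. At an unadjusted p under 0.05, edgeR gave 6 lower and 1 higher, the latter TFDP2, where 20.6% of all genes tested were lower and 21.1% higher by that rule. TFDP1, the main DP partner, fell from 93.7 ± 3.07 to 77.9 ± 3.86 CPM (SD, n = 3), or -0.27 on the log2 scale (adjusted p = 0.000388, edgeR). TFDP2, the other DP partner tested, stood at 87.6 ± 1.37 and 95 ± 2.52 CPM (SD, n = 3), with a log2 fold change of 0.12 (adjusted p = 0.0756). LIN52, a MuvB subunit, fell by 0.31 on the log2 scale, while LIN9, LIN54 and LIN37 were at -0.13, -0.046 and 0.11, none past the test. E2F6, which represses without a pocket protein, was at -0.24, the histone-binding subunit RBBP4 at -0.18, MYBL2 at -0.17 and FOXM1 at -0.21, all with an adjusted p under 0.05 and under the fold threshold. MYBL1 was at -0.31 (adjusted p = 0.138), in a gene with 5.24 CPM in control cells. Without knockdown sample 2, LIN52 was called lower and TFDP1 was not.

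Upstream of the pocket proteins stand the cyclins and kinases that phosphorylate them, a phosphatase that activates those kinases, and the inhibitors of those kinases. Of these 16 genes, 10 were called lower and 0 higher by both edgeR and DESeq2. Of all genes tested, edgeR called 11.3% lower and 11.8% higher. At an unadjusted p under 0.05 edgeR gave 13 lower and 0 higher, against 20.6% and 21.1% of all genes. The median log2 fold change was -0.36. CDKN1C, which encodes the inhibitor p57, fell from 20.9 ± 1.31 to 10.3 ± 0.607 CPM (SD, n = 3), or -1.02 on the log2 scale, CCND1 (cyclin D1) fell by 0.93 and CDKN2B, which encodes the inhibitor p15, by 0.84 on the log2 scale. The calls nearest the threshold were CDKN1A (p21) at -0.41, CDKN2D at -0.30 and CDK4 at -0.27. Genes that promote and genes that restrain RB phosphorylation thus both stood among those called lower. For p21 the RNA and the study's protein array differ in direction. On that array of RD and RH30 cells, the study reported higher p21 and lower RB phosphorylation after TAK1 silencing.

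Downstream stand the E2F target genes, most of which fell. Of 44 genes of G1/S transition and DNA replication, 43 were tested, and 29 were called lower and 0 higher by both edgeR and DESeq2. The shares of all genes called by edgeR were 11.3% and 11.8%. At an unadjusted p under 0.05 edgeR gave 39 lower and 0 higher, against 20.6% and 21.1% of all genes. The list summed to between 6444 and 6515 CPM in control and between 5169 and 5218 CPM in knockdown samples, and its median log2 fold change was -0.32. DUT, which removes dUTP, fell from 52.7 ± 2.18 to 35.2 ± 0.770 CPM (SD, n = 3), or -0.58. on the log2 scale Thymidylate synthase (TYMS) and the sliding clamp PCNA, whose E2F sites are shown above, fell by 0.52 and 0.50 on the log2 scale. DTL, ORC1 and DNMT1 were the calls nearest the threshold, at -0.31, -0.31 and -0.28. The log2 fold change of E2F8 lay below those of all but 2 of the 43 genes and that of E2F2 below those of all but 7, whereas those of RB1, RBL2, E2F3, E2F4, E2F5 and E2F7 lay above those of at least 39 of them.

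An E2F spelling was present in the promoters of 22 of the 40 genes of this list that were in the RefSeq table, or 55%. The median log2 fold change was -0.32 for these 22 genes, of which 15 were called lower, and -0.33 for the 18 without a match, of which 13 were called lower.

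The G2/M genes that DREAM holds back in resting cells and MYBL2 and FOXM1 activate in cycling cells also mostly fell. Of 32 genes, 21 were called lower and 0 higher by edgeR, against 11.3% and 11.8% of all genes, and 22 and 0 by DESeq2. At an unadjusted p under 0.05 edgeR gave 27 lower and 1 higher, the phosphatase gene CDC25B (0.10). By that rule 20.6% of all genes tested were lower and 21.1% higher. The median log2 fold change was -0.29. KIF23 and ECT2, which act in cytokinesis, fell by 0.80 and 0.73, and the mitotic kinase AURKA fell from 159 ± 2.17 to 94.9 ± 2.00 CPM (SD, n = 3), or -0.75. on the log2 scale TPX2, CDC20 and PLK1 were the calls nearest the threshold, at -0.27, -0.26 and -0.25. The CHR element was present in the promoters of 18 of 27 genes of this list in the table, or 66.7%.

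**Figure D4:**
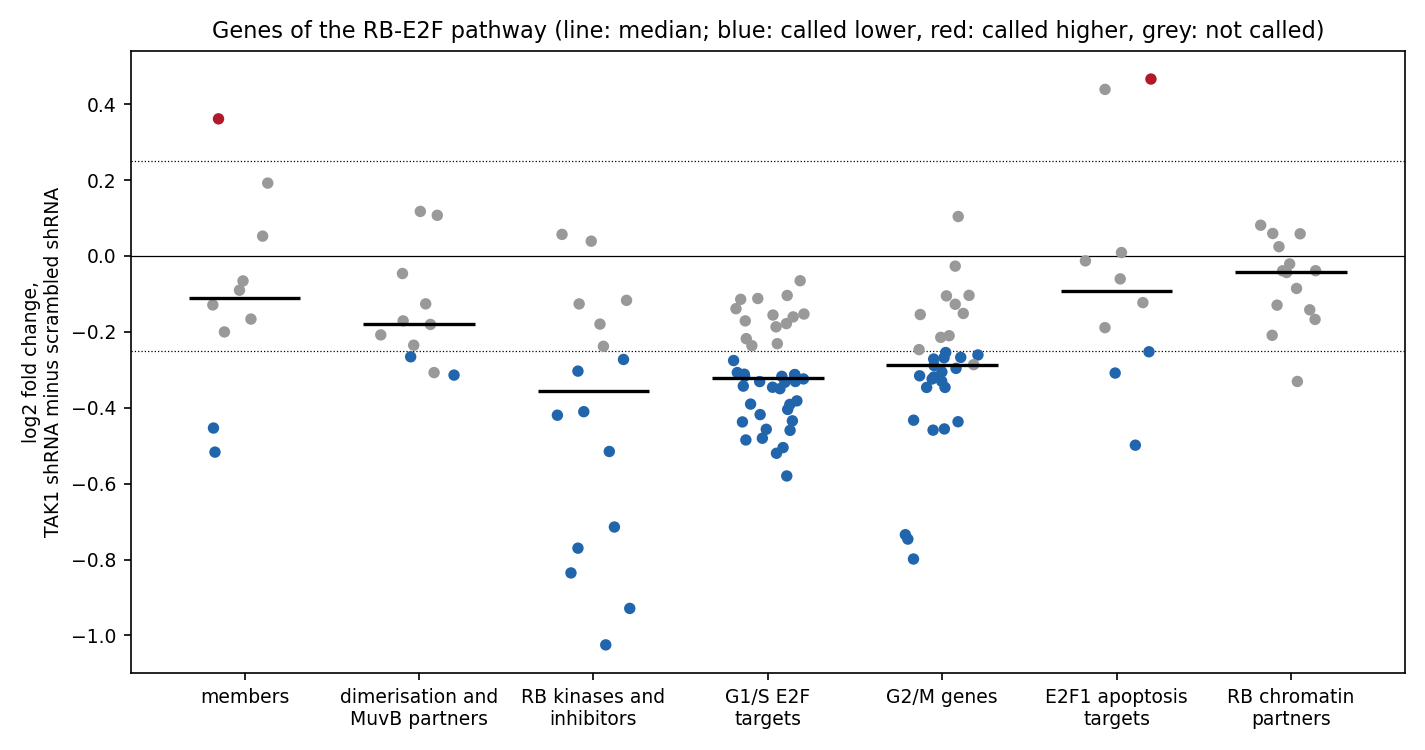
Log2 fold change (vertical axis) of each tested gene in the set of 10 and in 6 lists of genes around it, coloured by call, with the median of each list as a line and dotted lines at the fold threshold. The 43 G1/S targets all lie below 0, whereas the 10 members spread from -0.52 to 0.36.

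Genes of apoptosis that E2F1 is known to induce were called in both directions. Of 10 genes, 3 were called lower and 1 higher, the latter no more than the background of 11.8% of all genes (11.3% for lower), with a median log2 fold change of -0.092. PMAIP1 (NOXA) fell from 55.2 ± 3.70 to 39.0 ± 1.73 CPM (SD, n = 3), or -0.50 on the log2 scale and CASP8AP2 fell by 0.25, while BCL2L11 (BIM) rose from 37.7 ± 1.14 to 52.1 ± 1.65 CPM (SD, n = 3), or 0.47 on the log2 scale (adjusted p = 1.67e-06, edgeR). Up to 727 exonic bases of BCL2L11 are shared with MIR4435-2HG on the opposite strand. Of 14 genes for chromatin proteins that the pocket proteins recruit, 0 were called in either direction by edgeR or DESeq2. At an unadjusted p under 0.05 edgeR gave 3 lower and 0 higher, against 20.6% and 21.1% of all genes. The 3 were RBBP7 at -0.21 and the deacetylases HDAC2 at -0.17 and HDAC1 at -0.14. The median of this list was -0.041.

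Likeness to each member was measured as Pearson's r of log2 CPM over the 6 samples among the other 135 tested genes of the set and its lists, as a description. All these values share the same libraries and the difference between the groups. The gene most like E2F8 was BUB1, a mitotic checkpoint kinase gene (r = 0.995), and that most like E2F2 was CDC45, a replication fork gene (r = 0.996). RBL1 was most like MKI67, the proliferation marker gene (r = 0.990), E2F1 most like CDKN2D (r = 0.977), E2F3 most like CKAP2L (r = 0.979) and RB1 most like CDK6 (r = 0.922). RBL2 and E2F5 were both most like TFDP2 (r = 0.925 and 0.953). For E2F4 and E2F7 the highest values were 0.887, with HDAC1, and 0.561, with SIN3B. Between members, r was 0.892 for RBL2 with E2F5, 0.936 for RBL1 with E2F3 and -0.975 for E2F2 with E2F5.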

How the data were processed

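RNA from 6 samples of RD cells was sequenced by the authors as 75-base paired reads. Per the labels and the methods, reads were base-called with CASAVA, filtered for adaptors and low quality and aligned to GRCh38 with STAR. The authors deposited raw counts of reads per gene. The counter, annotation release and strand setting are not given in the sources used here. All 6 sample columns were used, each matched to a sample by its label.

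Counts were tested with edgeR 4.0.16 in R 4.3.3 (default expression filter, trimmed mean of M-values, no covariate, all 6 samples, quasi-likelihood test, 15935 genes with Benjamini-Hochberg adjustment over all of them). Thresholds for a call, adjusted p under 0.05 with a log2 fold change of 0.25 or more in size, follow the study's methods. DESeq2 1.42.0 was an alternative. Both were tested on simulated data. CPM are counts scaled to the normalized library size, and the standard error is the log2 fold change over the square root of its F statistic. The common biological coefficient of variation was 5.67%. Member counts ran from 535 to 3679, with counting errors of 4.32% and 1.65%. No pair of replicates agreed within sampling noise (chi-square per degree of freedom from 2.80 to 7.94).

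The members and lists were chosen with earlier results of these data known. Genes named are the members, MAP3K7, all dimerisation and MuvB partners and, in each other list, up to 3 called genes with the lowest and 3 with the highest log2 fold change, plus the most alike gene of each member. Others are named where a count of 5 or fewer, or an overlap, points to them. Coordinates, exons and lengths are from GENCODE 44, promoters from RefSeq. The comparison of promoter groups was chosen after the data were seen. A planned comparison of the members' proteins was not made. Some list genes are not reported here by name.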

Additional observations from a re-analysis of the deposited data

How the results depend on the processing

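E2F2 and E2F8 were called lower and E2F5 higher under all 13 alternatives that kept the fold threshold (3 other normalizations, DESeq2, 2 other filters, a replicate block and leaving out each sample). Over the 10 genes, 128 of 130 such values kept their direction and their call by both thresholds together. The adjusted p alone crossed 0.05 in 15 of them, 5 each for RBL1 and RBL2, 4 for E2F1 and 1 for RB1, none of which changed a call. The exceptions in call or direction were RBL1, called lower without knockdown sample 3 (-0.27), and E2F7, which changed sign without control sample 3 (-0.022), where fewer samples were used and whose values with each sample left out ran from -0.022 to 0.11. At a fold threshold of 0.5, edgeR called 1 member lower and 0 higher, and 680 genes lower and 735 higher overall. With no fold threshold it called 4 members lower and 2 higher, and 2734 of all genes lower and 2569 higher. The number of list genes called moved by over 1.5 times chiefly with the fold threshold, and at 0.5 edgeR called 3 of the 43 G1/S targets and 3 of the 32 G2/M genes lower. The G2/M genes called lower also fell from 21 to 14 with scaling by library size alone. They numbered 18 with upper-quartile normalization and 17 without knockdown sample 1. Scaling by library size alone made 62.9% of all calls upward, against 51.0%, and left LIN52 and not TFDP1 called among the partner genes, as did upper-quartile normalization. Same-numbered samples of the groups deviated together little (r from 0.0165 to 0.0370), which does not settle whether the numbers pair them. With the replicate block, 1848 genes were called lower and 1942 higher, against 1805 and 1879 without it. Among the members the block gave 2 and 1. Counting error limits E2F7 and E2F5, the members with the fewest counts, most.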

Other observations

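Across all tested genes with a promoter in the RefSeq table, the E2F spellings marked a group with a larger share of genes called lower. Of 588 genes with a match, 17.0% were called lower and 11.2% higher, against 12.8% and 12.4% of the 10239 genes without a match. Outside the members and lists, 554 genes had a match, of which 14.1% were called lower and 11.9% higher, against 13.0% and 12.3% of all 10827 genes with a promoter in the table. The median log2 fold change was -0.029 for these 554 genes. Of 1016 genes outside the lists with the CHR element, 15.4% were called lower and 9.74% higher. Of all 9789 genes without the element, 12.7% were called lower and 12.6% higher. These shares are descriptions without a test.

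Among the 554 genes with an E2F spelling outside the lists, some moved by more than any member. COX7C, SYT2 and MAST3 were named after their values were seen. COX7C encodes a subunit of the last enzyme of the respiratory chain. COX7C fell from 130 ± 5.26 to 51.0 ± 1.78 CPM (SD, n = 3), or -1.35 on the log2 scale. SYT2, a calcium sensor of vesicle release, fell from 10.3 ± 0.320 to 4.88 ± 0.225 CPM (SD, n = 3). MAST3, a kinase gene, rose from 25.1 ± 1.03 to 44.1 ± 2.01 CPM (SD, n = 3), or 0.81 on the log2 scale. COX7C, SYT2 and MAST3 did not overlap between the groups. As they were named after their values were seen, this is not separate evidence of a change. Of all genes tested, 22.2% were lower without overlap and 21.6% were higher without overlap.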
